A study of Oryza sativa Indica Group and Oryza sativa Japonica Group with 8 samples.

Results

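The genes described here are 8 genes listed as effector genes of the rice anther, CYP703A3, 4CLL1, C6, RAFTIN1, CP1, RTS, INP1 and MTR1, each read by 1 probe set, 8 of the 57258 probe sets on the array. For 4CLL1 and MTR1 an anther role of the locus could not be checked. The 8 genes were listed by probe set name, with earlier results of these data known. Counts of the 8 set beside all probe sets are therefore descriptions and no independent support. The gene table gives each of the 8 names as a synonym of the locus that its probe set reads. The probe sets and loci are Os.49633.1.S1_at and LOC4344594 for CYP703A3, Os.11459.1.S1_at and LOC4331650 for 4CLL1, Os.52076.1.S1_at and LOC4350790 for C6, and Os.49777.1.S1_at and LOC4345929 for RAFTIN1. They are Os.55109.1.S1_at and LOC4337353 for CP1, Os.34543.1.S1_at and LOC4326940 for RTS, Os.54704.1.S1_at and LOC4330222 for INP1, and Os.52331.1.A1_at and LOC4344396 for MTR1. None of these loci had a further probe set, so no gene has a second reading.

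RNA came from young rice panicles, collected in the span that starts with microspore mother cells and ends with meiosis, and 1 array was made per line and temperature, 8 in all. The tms5 lines were AnS-1, an indica line labelled a TGMS (thermosensitive genic male sterile) mutant, and Os02g12290iL1, a single japonica line with RNA interference against Os02g12290. Their wild types were AnN (indica) and ZH11 (japonica), and the design text asks whether RNase ZS1 takes part in the metabolism of mRNA. The plants grew at a day average temperature of 28 °C (labelled high) or 23 °C (labelled low), in a growth cabinet. The 4 groups were therefore tms5 at 28 °C, wild type at 28 °C, tms5 at 23 °C and wild type at 23 °C, with 2 arrays each, 1 indica and 1 japonica. Each line was thus measured on a single array per temperature, the labels do not say whether plants were pooled or give the stage of each panicle, and a p-value here reflects the spread among these arrays alone.

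The pollen wall is built while the microspores lie in the anther locule, and much of its material comes from the tapetum, the innermost layer of the anther wall. Tapetal cells make fatty acid and phenolic precursors of sporopollenin, the polymer of the outer wall, and carry them to the surface with lipid transfer proteins and orbicules. Later the tapetum breaks down in a programmed way, in which proteases take part. In rice, the transcription factors TDR and EAT1 act above many of these genes, and C6 and CP1 are known targets of TDR.

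Of the 8 genes, CYP703A3 encodes an in-chain fatty acid hydroxylase that supplies sporopollenin precursors, C6 encodes a lipid transfer protein secreted from the tapetum, and RAFTIN1 a BURP domain protein that reaches the microspores through the orbicules. CP1 encodes a tapetal cysteine protease, RTS is a tapetum gene needed for male fertility, and INP1 encodes a protein of the pollen aperture. The name 4CLL1 stands for a 4-coumarate-CoA ligase-like enzyme. Its Arabidopsis namesake class includes the anther acyl-CoA synthetase ACOS5, but whether this rice locus has that role is not stated by the tables used here. MTR1 is the name of a secreted fasciclin protein of rice microspores, and the table gives no description that ties LOC4344396 to that protein, so it is called here by its listed name only.

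All intensities below are from arrays quantile normalized to one scale, since the deposited medians were 139 and 141 on the indica arrays at 28 °C, against 59.2 and 61.3 on those at 23 °C. Differences are in log2(intensity + 16), which understates those of dim genes. Background was read from 64 probe sets for foreign reporter genes, whose upper quartile lay between 54.5 and 74 on the 8 arrays, and a level at or under it is called background here. Some controls are brighter, so a level above background can still lie within the range of the controls. The first principal component (57.9% of the variance) separated indica from japonica, and the second (27.6%) set the indica arrays at 28 °C (scores of -74.2 for AnS-1 and -87.7 for AnN) apart from those at 23 °C (87.8 and 61.4). The tissue label was checked on floral and meiotic genes. MADS16, a gene of petal and stamen identity, lay between 6060 and 9060 on the 8 arrays, PAIR2, of the meiotic chromosome axis, between 655 and 2610, and MEL1, a germline argonaute, between 556 and 2190. These were the brightest of the floral and meiotic probe sets listed. Of the 15 meiotic probe sets, 1 to 3 were at background on each array.

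**Figure D1:**
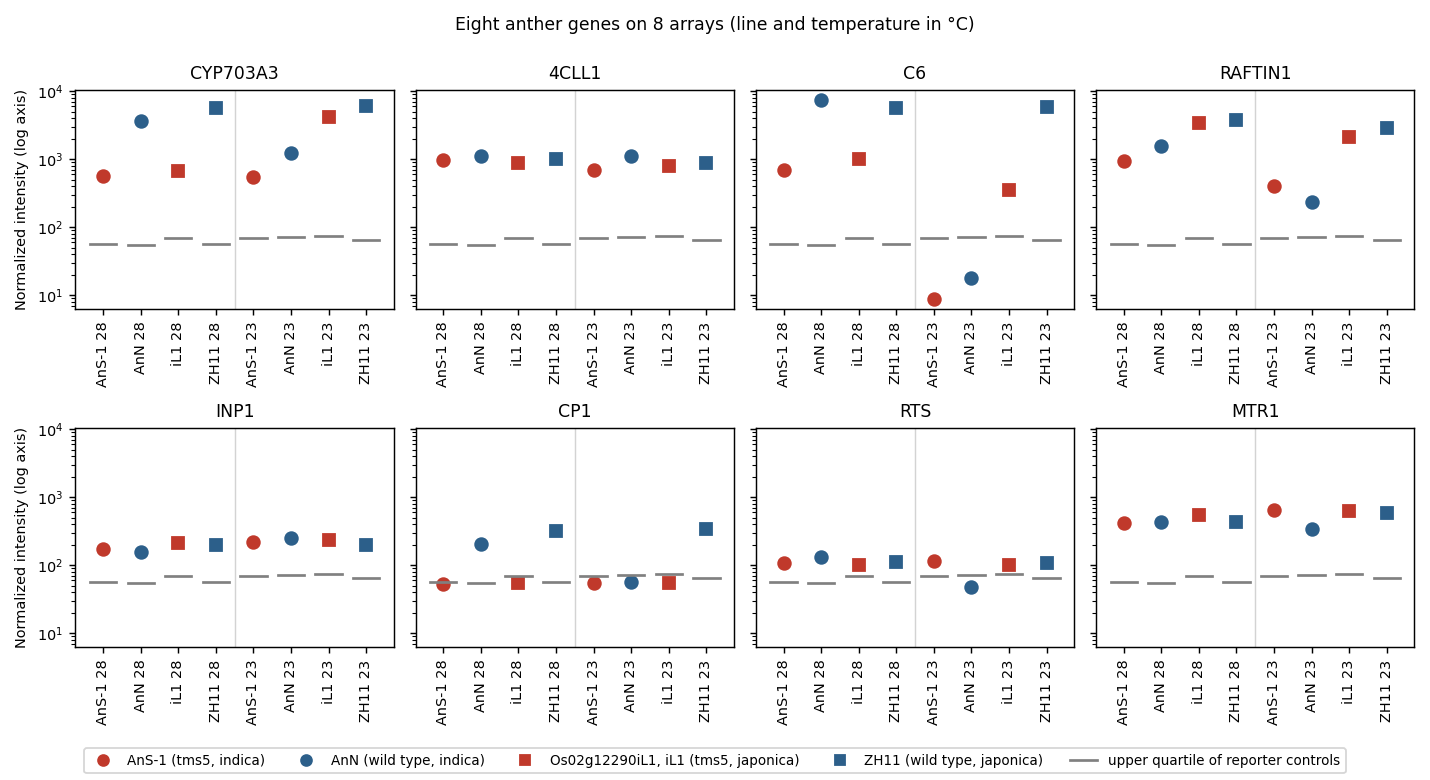
Normalized intensity (log axis) of the 8 genes on each of the 8 arrays, 28 °C left of 23 °C and each tms5 line left of its wild type; circles are indica lines, squares japonica lines, and grey bars the upper quartile of the reporter controls on that array. CYP703A3, C6 and CP1 spread widely between arrays, while 4CLL1, INP1 and MTR1 stay in a narrow band above the grey bars.

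At 28 °C, 3 of the 8 genes (CYP703A3, C6 and CP1) lay 2-fold or more below the wild type in each background. Over all 34316 probe sets tested, 167 were (0.487%). None of the 8 was 2-fold higher in both (0.00874% of all probe sets). Without a size limit, 6 of the 8 had a lower level in both tms5 lines, against 20.4% of all probe sets, 1 (INP1) was higher in both, against 31.7%, and MTR1 was split. The median difference of the 8 genes was -0.48 in indica and -0.18 in japonica, beside 0.04 and 0.01 over all probe sets. In whole panicles whose stage is not given, fewer tapetal cells, less RNA per cell and a difference in stage cannot be told apart.

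CYP703A3 had an intensity of 573 in AnS-1 and 668 in Os02g12290iL1 at 28 °C, against 3650 in AnN and 5730 in ZH11. Both tms5 lines lay below both wild types, and the share of all probe sets in that order was not computed. AnS-1 was 6.37-fold below AnN and Os02g12290iL1 8.58-fold below ZH11, and the mean log2 difference was -2.85 ± 0.31 (SD, n = 2).

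C6 had 708 in AnS-1 and 1010 in Os02g12290iL1 at 28 °C, against 7440 in AnN and 5690 in ZH11. Both tms5 lines again lay below both wild types, and all 4 levels were well above the upper quartile of the controls. The gap was 10.5-fold between AnS-1 and AnN and 5.61-fold between Os02g12290iL1 and ZH11, and the log2 differences averaged -2.92 ± 0.63 (SD, n = 2).

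CP1 had 52.8 in AnS-1 and 54.6 in Os02g12290iL1 at 28 °C, against 209 in AnN and 320 in ZH11. The protease gene was thus at background in both tms5 lines and above it in both wild types. Measured against the upper quartile of the controls, AnS-1 lay at least 3.69-fold below AnN and Os02g12290iL1 at least 4.56-fold below ZH11. The fitted log2 difference of -1.98 is set against background and depends on the pseudocount, being -2.25 with 1 and -1.46 with 64.

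The other 5 genes differed by less than 2-fold between a tms5 line and its wild type at 28 °C. RAFTIN1 had 955 in AnS-1 and 3410 in Os02g12290iL1, against 1580 in AnN and 3830 in ZH11, which is 1.65-fold and 1.12-fold lower. 4CLL1 had 979 and 872 in AnS-1 and Os02g12290iL1, against 1120 and 1000 in AnN and ZH11. RAFTIN1 thus differed more between indica and japonica lines than between a tms5 line and its wild type, and 4CLL1 was 1.14-fold and 1.15-fold lower.

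RTS had 109 in AnS-1 and 99.8 in Os02g12290iL1, against 132 in AnN and 113 in ZH11. This tapetum gene was above the upper quartile of the controls on all 4 arrays, by less than 3-fold. It lay under the highest control on each of them. INP1 had 174 and 210, against 156 and 200, and its mean log2 difference was 0.11 ± 0.05 (SD, n = 2). MTR1 had 412 and 546, against 431 and 440. None of these 3 genes differed by 1.5-fold in either background.

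With all 8 arrays, limma called none of the 8 genes at 28 °C (adjusted p = 1 for each, 0% of all probe sets called lower). With limma's p before adjustment under 0.05, CYP703A3 (0.00906) and CP1 (0.0198) were lower, as were 1.07% of all probe sets, and none of the 8 was higher (0.114%). Fitted to the 4 arrays at 28 °C alone, with 1 residual degree of freedom, limma called 3 of the 8 as lower, against 0.385% of all probe sets: CYP703A3 (adjusted p = 0.00614), C6 (adjusted p = 0.0191) and CP1 (adjusted p = 0.0218), the last with both tms5 lines at background. With a term for background by temperature (the array set) in the 8-array fit as a replicate block, CYP703A3 had an adjusted p of 0.0988 and C6 and CP1 of 1 in limma.

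**Figure D2:**
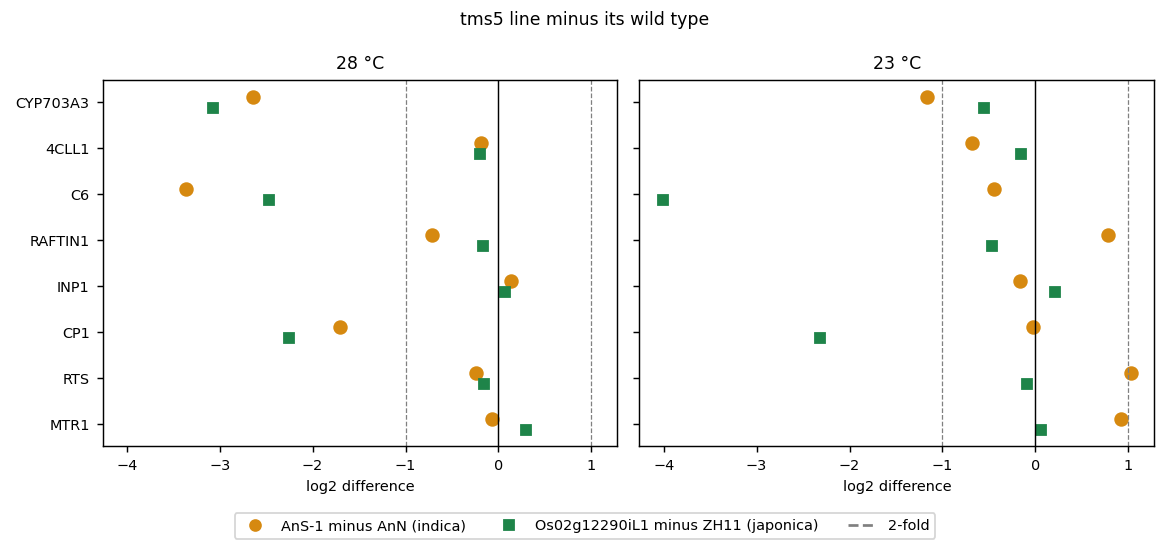
Log2 difference of each tms5 line from its wild type (horizontal axis) for the 8 genes, at 28 °C on the left and 23 °C on the right; circles are AnS-1 minus AnN, squares Os02g12290iL1 minus ZH11, and dashed lines mark 2-fold. At 28 °C both points of CYP703A3, C6 and CP1 lie left of the 2-fold line, while at 23 °C only the japonica points of C6 and CP1 and the indica point of CYP703A3 do.

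At 23 °C, none of the 8 genes was 2-fold lower in both backgrounds, where 0.347% of all probe sets were, and none was 2-fold higher in both (0.0175%). Without a size limit, 4 of the 8 had a lower level in both tms5 lines (26.6% of all probe sets) and 1, MTR1, was higher in both (35.2%). The lines differed from each other in which genes were low. In japonica C6 and CP1 were low in the RNAi line, while in indica these genes were at background in the mutant and in its wild type alike.

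CYP703A3 had 545 in AnS-1 and 4140 in Os02g12290iL1 at 23 °C, against 1240 in AnN and 6080 in ZH11. AnS-1 was 2.28-fold below AnN, and Os02g12290iL1 1.47-fold below ZH11. The tms5 and wild-type levels overlapped, since the RNAi line lay above AnN. The RNAi line at 23 °C lay nearer to its wild type than at 28 °C, whereas AnS-1 had almost the same level at both temperatures.

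C6 had 8.85 in AnS-1 and 354 in Os02g12290iL1 at 23 °C, against 17.8 in AnN and 5930 in ZH11. Both indica values were at background and have no fold. In japonica C6 was 16.8-fold lower in the RNAi line, a larger gap than at 28 °C.

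CP1 had 55.5 in AnS-1 and 55.3 in Os02g12290iL1 at 23 °C, against 57 in AnN and 340 in ZH11. ZH11 was the only one of the 4 lines above background, and the RNAi line was at least 4.6-fold lower than ZH11. The CP1 level in ZH11 was still under the highest control of that array (351). Over both temperatures CP1 stood above background on 3 arrays, all of them wild type. Only through these arrays did CP1 enter the tested upper 60% by mean level. Its counts and calls as lower in tms5 are thus no independent support.

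RAFTIN1 had 411 in AnS-1 and 2100 in Os02g12290iL1 at 23 °C, against 233 in AnN and 2920 in ZH11, so it was 1.77-fold higher in the indica mutant and 1.39-fold lower in the RNAi line. 4CLL1 had 688 and 802, against 1110 and 892, and was lower in both backgrounds, by 1.61-fold and 1.11-fold. RTS had 114 and 101, against 47.5 and 109, with AnN at background. INP1 had 223 and 232, against 253 and 199, and MTR1 had 656 and 621, against 340 and 593. AnN was the lowest of the 4 lines for RTS and MTR1, whose log2 differences were 1.03 and 0.92 in indica and -0.09 and 0.06 in japonica.

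Limma called none of the 8 genes at 23 °C (adjusted p = 1 for each, 0% of all probe sets called), and none had an unadjusted p under 0.05, as 1.39% of all probe sets had in the lower and 0.761% in the higher direction. Green tissue markers moved with the indica pair at 23 °C. The 6 probe sets of CAB2R and RBCS summed to 7710 in AnS-1 and 6250 in Os02g12290iL1, against 14500 in AnN and 6650 in ZH11, with 2 of the 6 at background on each array. Their part in the values of AnN was not tested.

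An interaction term tested whether the tms5 difference itself depended on temperature, and limma passed none of the 8 genes (adjusted p = 1 for each, 0% of all probe sets called). None had an unadjusted p under 0.05 either, as 0.294% of all probe sets had in the lower and 0.239% in the higher direction. CYP703A3 alone of the 8 had a difference at least 2-fold more negative at 28 °C than at 23 °C in both backgrounds (log2 -1.47 in indica and -2.52 in japonica, unadjusted p = 0.0989), as 0.221% of all probe sets did. For C6 the interaction was -2.92 in indica, where the 23 °C values are background, and 1.54 in japonica. For CP1 it was -1.68 in indica, again against background at 23 °C, and 0.07 in japonica.

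Taking the 4 pairs of a tms5 line and its wild type together, 4 of the 8 genes (CYP703A3, 4CLL1, C6 and CP1) were lower in tms5 in every pair, against 7.25% of all probe sets, although the indica pair at 23 °C is background for C6 and CP1. Of the 8 genes none was higher in every pair (10.8% of all probe sets), and none was at least 2-fold lower in all 4 (0.0291%). The mean log2 difference over the pairs was -1.86 (limma SE 0.45) for CYP703A3, -2.57 (SE 0.58) for C6, -1.58 (SE 0.4) for CP1 and -0.3 (SE 0.11) for 4CLL1. The CP1 value is no exact size, since CP1 was at background in the tms5 line of every pair. These 4 genes had an unadjusted p under 0.05 (0.00727, 0.00546, 0.00916 and 0.037), where 4.2% of all probe sets did in that direction, and none of the 8 had one in the other direction (3.11%). None passed after adjustment (adjusted p = 0.553, 0.536, 0.553 and 0.664), and 0% of all probe sets did.

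The indica pair at 23 °C had the lowest deposited medians, and in it C6 and CP1 were at background in both lines, so it could show no difference for them. Without that pair, the other 3 gave a C6 difference of -3.28 (SE 0.28, limma adjusted p = 0.0452). CP1 was also called (limma adjusted p = 0.0292), with the tms5 line at background in each of the 3 pairs, so that its fitted value of -2.1 is no exact size and its SE of 0.14 rests partly on that floor. These 2 genes are among the 50 probe sets (0.146%) called lower in that fit. They are also the 2 of the 8 that were at least 2-fold lower in each of the 3 pairs, as 81 probe sets (0.236%) were. CYP703A3 averaged -2.09 (SE 0.48) and was not called (adjusted p = 0.335). RAFTIN1 averaged -0.45 (SE 0.12, adjusted p = 0.424). This fit was added after the data were seen, and since the pair left out is the one without a difference in C6 and CP1, their calls in it are no independent support.

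Temperature was compared within each line next. The indica arrays carry the difference in deposited scale, and in those values the median log2 difference of all tested probe sets between 28 °C and 23 °C was 0.84 in AnS-1 and 0.86 in AnN, against -0.13 and -0.1 after quantile normalization. In japonica it was 0.02 in Os02g12290iL1 and -0.04 in ZH11 as deposited. Indica temperature differences below are therefore relative to a shift that was set by the normalization.

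In indica, 2 secreted product genes had much higher levels at 28 °C. C6 had 708 in AnS-1 and 7440 in AnN at 28 °C, against the background levels of 8.85 and 17.8 at 23 °C. It was at least 10.3-fold higher in AnS-1 and at least 102-fold higher in AnN at 28 °C. In japonica the RNAi line had 1010 at 28 °C and 354 at 23 °C, 2.86-fold higher, while ZH11 had 5690 and 5930.

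RAFTIN1 was higher at 28 °C in each of the 4 lines. The fold was 2.32 in AnS-1 and 1.62 in Os02g12290iL1, and 6.77 in AnN and 1.31 in ZH11. CYP703A3 differed between lines in direction. It was within 1.05-fold between temperatures in AnS-1 and 6.2-fold lower at 28 °C in Os02g12290iL1, and 2.93-fold higher in AnN and 1.06-fold lower in ZH11.

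CP1 was at least 2.88-fold higher at 28 °C in AnN, and at background at both temperatures in AnS-1 and Os02g12290iL1. In ZH11 it had 320 at 28 °C and 340 at 23 °C. RTS was at least 1.82-fold higher at 28 °C in AnN, and the other 3 lines differed by 1.04-fold or less. INP1 ran the other way in indica, 1.28-fold lower at 28 °C in AnS-1 and 1.62-fold lower in AnN, but in the deposited scale it was higher by 0.67 and 0.34 on the log2 scale. 4CLL1 was 1.42-fold higher at 28 °C in AnS-1, 1.09-fold in Os02g12290iL1 and 1.12-fold in ZH11, while in AnN its log2 difference was 0.01, or -0.06 with arrays scaled by their medians. MTR1 was lower in AnS-1, Os02g12290iL1 and ZH11 and higher in AnN.

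Limma called none of the 8 genes for temperature, in tms5 (smallest adjusted p = 0.577) or in wild type (smallest adjusted p = 0.606), nor any other probe set (0% called). The 8-array fits by group, here and for tms5 against wild type at each temperature, take a common temperature effect for both backgrounds. A difference between backgrounds adds to their spread, so no call does not mean no effect within a background. In a fit added later 26.7% of all probe sets were called for such a difference. RAFTIN1 in wild type had an unadjusted p of 0.0356, the only one of the 8 under 0.05 in either genotype, where 2.53% of all probe sets were in that direction and 3.47% in the other. In tms5 none of the 8 was, against 2.6% of all probe sets higher and 2.73% lower. C6 was the only one of the 8 at least 2-fold higher at 28 °C in both tms5 lines (0.443% of all probe sets), and none was in both wild types (0.0816%). None was 2-fold lower at 28 °C in both lines of a genotype (0.166% in tms5 and 0.102% in wild type).

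**Figure D3:**
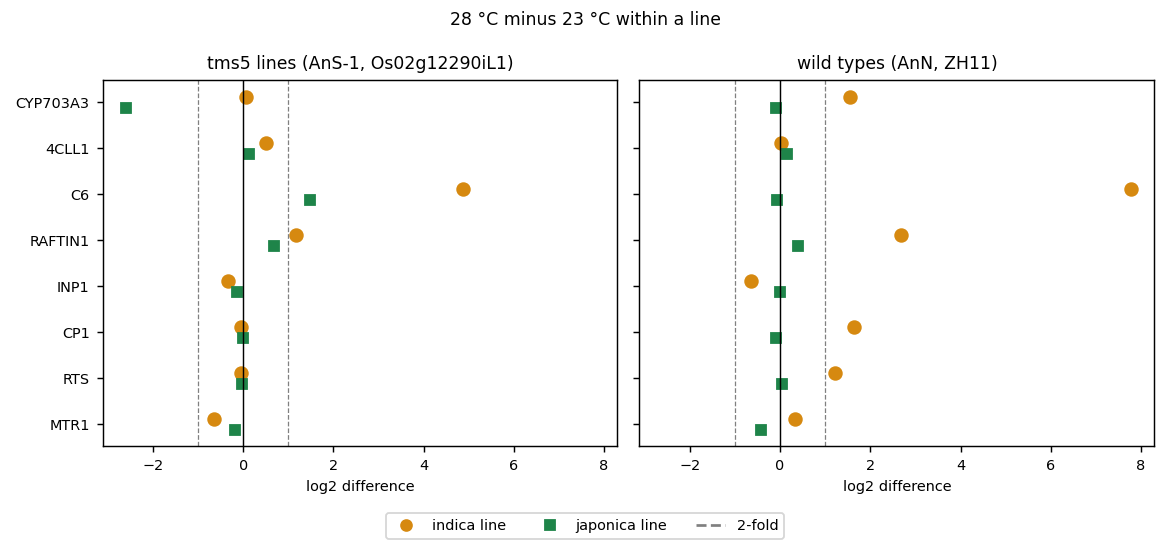
Log2 difference between 28 °C and 23 °C within a line (horizontal axis) for the 8 genes, tms5 lines on the left and wild types on the right; circles are indica lines, squares japonica lines, and dashed lines mark 2-fold. The largest differences are the indica points of C6 (4.87 in AnS-1 and 7.78 in AnN), which are set against background levels at 23 °C and are not exact, while all ZH11 points lie within 2-fold.

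The difference between backgrounds in the temperature effect was tested by limma in a fit added after the data were seen. C6 had a temperature effect larger by 5.62 on the log2 scale in indica than in japonica (SE 1.16, adjusted p = 0.0223), and it alone of the 8 was called, where 13.1% of all probe sets were called higher. A further 13.6% of all probe sets, and none of the 8, were called lower. Both indica values at 23 °C are background, so 5.62 is not an exact size, and with a pseudocount of 64 it was 4.31 and not called (adjusted p = 0.0524). The call was also lost without any of 5 single arrays, with adjusted p of 0.103 without AnN at 28 °C, 0.0673 without AnS-1 at 28 °C, 0.0878 without ZH11 at 23 °C, 0.0798 without ZH11 at 28 °C and 0.0648 without Os02g12290iL1 at 28 °C. The estimates for RAFTIN1 (1.39, adjusted p = 0.0949) and CYP703A3 (2.15, adjusted p = 0.13) did not pass. In these indica lines meiotic markers also differed by temperature, relative to the shift that the normalization set. Their sums were not computed on the deposited scale. The 15 meiocyte probe sets summed to 3860 in AnS-1 and 3070 in AnN at 28 °C, against 7180 and 5140 at 23 °C, with 1 or 2 at background, and in japonica to 7070 and 6760, against 7920 and 7230, with 2 or 3 at background. Their part in the C6 result was not tested.

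The order of levels across arrays differed between the genes. For CYP703A3 the order from the top was ZH11 at 23 °C (6080), ZH11 at 28 °C (5730), Os02g12290iL1 at 23 °C (4140), AnN at 28 °C (3650), AnN at 23 °C (1240), and then Os02g12290iL1 at 28 °C (668) and AnS-1 at 28 °C (573) and 23 °C (545). The 3 lowest arrays lay within 1.5-fold of each other. RAFTIN1 was ordered by background, with all 4 japonica arrays (2100 to 3830) above all 4 indica arrays (233 to 1580). With 1 array per line and temperature, neighbours in these orders cannot be told apart by a spread of their own.

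Other genes of the tapetum program were followed from lists of anther, tapetum and other cell type genes. Of these, 7 tapetum regulator probe sets and C4 and AP25 were measured beside the 8 genes. No list probe set tested passed limma on all 8 arrays in tms5 against wild type at 28 °C, at 23 °C or over the 4 pairs. None passed between temperatures in tms5 or in wild type either. In each of these fits 0% of all probe sets were called, so this says nothing particular to the lists. Of 22 sporopollenin and anther lipid symbols 2 matched a probe set, both among the 8 genes, and of 6 callose and microspore release symbols 1 did, also among the 8. The 4 probe sets of tapetal proteases and cell death (AP25, TDR, EAT1 and PTC1) were all lower in both tms5 lines at 28 °C (20.4% of all probe sets). Their median log2 difference was -0.66, beside 0.02 over all probe sets. At 23 °C 3 of the 4 were lower in both (26.6% of all probe sets), with PTC1 at background in both indica lines. The regulator list shares TDR, EAT1 and PTC1 with that list, and at 28 °C these shared genes were the 3 of its 7 probe sets that were lower in both tms5 lines, where 20.4% of all probe sets were. Among the 7, 1, PTC1, was at least 2-fold lower in both (0.487% of all probe sets), with a median of -0.03 over the 7. PTC1, a regulator of tapetal cell death, had 116 in AnS-1 and 159 in Os02g12290iL1, against 428 in AnN and 447 in ZH11. TDR, which acts above C6 and CP1, had 1980 and 4260, against 2350 and 4490, and EAT1 had 726 and 2000, against 1340 and 3020. The log2 difference of TDR was -0.24 in indica and -0.07 in japonica, and that of EAT1 was -0.87 and -0.59, all smaller than those of C6 and CP1 at the same temperature.

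C4, a lipid transfer protein gene of the anther like C6, had 6730 in AnS-1 and 9410 in Os02g12290iL1 at 28 °C, against 8430 in AnN and 10500 in ZH11. At 23 °C it had 374 and 10100, against 3610 and 11200. C4 was therefore high in the RNAi line at both temperatures, on the arrays where C6 was low beside ZH11. In AnS-1 at 23 °C C4 was low too, with a log2 difference of -3.22 from AnN. C6 was at background in both indica lines at that temperature. AP25, an aspartic protease gene of tapetal cell death, had 4000 and 3390 at 28 °C, against 4960 and 6290, and 3630 and 3350 at 23 °C, against 4320 and 5660. It was lower in tms5 in each of the 4 pairs, by less than 2-fold.

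Summed over the 7 regulators, the level at 28 °C was 7530 in AnS-1 and 15400 in Os02g12290iL1, against 8070 in AnN and 17700 in ZH11. The 15 meiocyte probe sets at 28 °C summed to 3860 and 7070, against 3070 and 6760. Of these 0 of 15 were at least 2-fold lower in both (0.487% of all probe sets) and 9 of 15 higher in both by sign (31.7%), with several reading the same gene. The 17 floral organ identity probe sets summed to 36100 and 35900, against 34000 and 34300, with 1 at background in AnN. The 6 green tissue probe sets summed to 7320 and 3010, against 7010 and 5710. None of these 4 sums was lower in both tms5 lines by as much as 2-fold at 28 °C. A sum follows its brightest probe sets, and PTC1, which was 2-fold lower in both, adds only 116 of the 7530 in AnS-1. The part of these cell types in the 28 °C differences of CYP703A3, C6 and CP1 was not tested.

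The named genes closest in pattern were sought by Pearson's r of the log2 values over the 8 arrays, among 2683 named probe sets. The arrays share lines and temperatures, so r is a description with no test. Closest to CP1 was the chalcone synthase gene CHS (r = 0.986), followed by the hexokinase gene HXK6 (r = 0.95) and the phospholipase gene pla2-II (r = 0.94). At 28 °C CHS had 171 in AnS-1 and 118 in Os02g12290iL1, against 1410 in AnN and 1940 in ZH11. At 23 °C it had 192 and 199, against 225 and 1900, so that, as with CP1, the 3 highest arrays were those of AnN at 28 °C and of ZH11 at both temperatures.

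Closest to CYP703A3 were ACLA-2 (r = 0.976), KPHMT1, an enzyme gene of pantothenate synthesis (r = 0.959), and OsPUB73 (r = 0.946). KPHMT1 had 193 in AnS-1 and 133 in Os02g12290iL1 at 28 °C, against 863 in AnN and 877 in ZH11, and at 23 °C 239 and 691, against 259 and 1050. ACLA-2 lay in a narrower range, from 2570 in AnS-1 at 28 °C to 6310 in ZH11 at 23 °C.

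Closest to C6 were PTC1 (r = 0.942), the kinase gene OsSAPK6 (r = 0.927) and the xanthine dehydrogenase gene XDH (r = 0.923). PTC1 had 9.86 in AnS-1 and 303 in Os02g12290iL1 at 23 °C, against 13.4 in AnN and 662 in ZH11, so both genes were at background in indica at 23 °C. For RAFTIN1 the closest were AGPR (r = 0.976), OsUGLYAH (r = 0.97) and BGLU6 (r = 0.968), each of which was lowest in the indica lines at 23 °C.

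For the other 4 genes the closest were EXLA1, HAK1 and JAZ7 for 4CLL1 (r from 0.953 to 0.969), OsRR2, CDKC-1 and IAR for INP1 (r from 0.954 to 0.969), ITPase, tom2 and 6PGDH2 for RTS (r from 0.946 to 0.958) and GRF10, OsSWEET1a and GCN5 for MTR1 (r from 0.921 to 0.95). ITPase and tom2 shared with RTS a low value in AnN at 23 °C, with 502 for ITPase and 425 for tom2. HAK1, a potassium transporter gene, had a wider range than 4CLL1, with 1980 in AnN at 28 °C and 348 in AnS-1 at 23 °C.

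**Figure D4:**
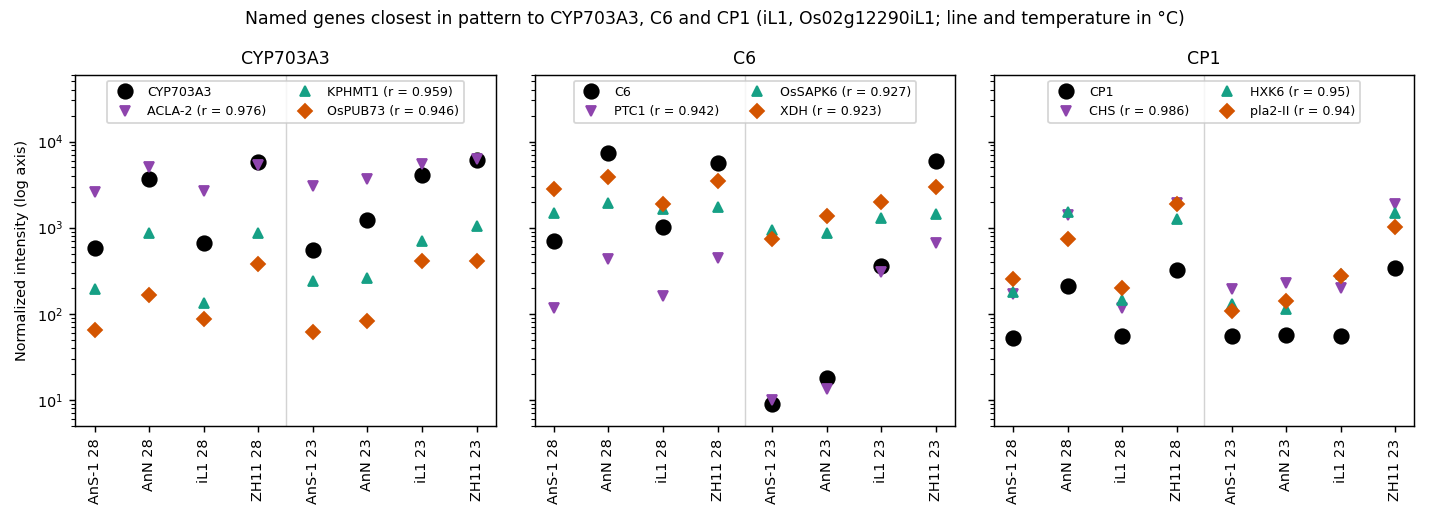
Normalized intensity (log axis) of CYP703A3, C6 and CP1 (black circles) and of the 3 named genes closest to each in pattern, on the 8 arrays in the same order of lines and temperatures; r is Pearson's correlation of log2 values over the 8 arrays. CP1, CHS, HXK6 and pla2-II share 3 high arrays, those of AnN at 28 °C and of ZH11 at both temperatures.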

How the data were processed

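The authors deposited a linear intensity for each probe set on each array. The submitters' processing notes name RMA and Affymetrix Expression Console (versions are not given in the sources used here), and the linear scale was read off the numbers themselves, since RMA output is commonly on a log2 scale. All 8 columns were used, 0 were left out, and 0 arrays were identical. The 57258 probe sets were quantile normalized, 64 reporter controls left out, and log2(intensity + 16) of the upper 60% by mean (34316) tested with limma 3.58.1 in R 4.3.3 (group means, background as a block, empirical Bayes, Benjamini-Hochberg over all tested, called under 0.05). All 8 genes passed that filter, CP1 only through the wild-type arrays where it was above background. The comparison over 4 pairs had a block per pair. The fit was tested on simulated data with no temperature effect, so that check does not cover one that differs between backgrounds. The genes and lists were chosen with earlier results of these data known. List members were matched by exact symbol or synonym, and loci that share a symbol with a listed gene (such as aquaporins named TIP2 and TIP3) were left out. Named genes are the 8, the 3 closest named probe sets of each, and list members. Sequences were not used here, and array number limits the precision.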

Additional observations from a re-analysis of the deposited data

Results flagged for a closer look

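C6 had a temperature effect larger by 5.62 on the log2 scale in indica than in japonica, and the limma test of that difference passed (adjusted p = 0.0223). The call was lost without any of 5 single arrays (adjusted p from 0.0648 to 0.103) and with a pseudocount of 64 (0.0524). C6 was at background in both indica lines at 23 °C, so neither this value nor the indica differences are exact sizes. In the individual lines the difference between 28 °C and 23 °C was 4.87 in AnS-1 and 1.48 in Os02g12290iL1, and 7.78 in AnN and -0.06 in ZH11.

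CYP703A3 differed between temperatures in opposite directions in the backgrounds, with 0.07 in AnS-1 and 1.54 in AnN, against -2.6 in Os02g12290iL1 and -0.08 in ZH11. The estimated difference was 2.15 and did not pass limma (adjusted p = 0.13). The values of AnS-1 and ZH11 are close to 0, and with arrays scaled by their medians AnS-1 had -0.01, so the opposite directions were lost.

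RTS was lower at 28 °C in both tms5 lines (-0.05 and -0.02) and higher in both wild types (1.22 and 0.05), a difference of -0.67 that did not pass limma (adjusted p = 1), and 3 of these 4 values are close to 0. The value of 1.22 is set against background in AnN at 23 °C, so neither it nor -0.67 is an exact size.

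Among the reporter controls, which were not tested as genes but whose upper quartile sets the background level, the highest reached 3220 on the Os02g12290iL1 array at 28 °C and 3080 at 23 °C, where the same 2 control probe sets were at most 76.1 on the other 6 arrays.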

How the results depend on the processing

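Of 986 values of the 8 genes under alternative settings, 915 kept direction and side of the threshold, 18 passed it newly, 6 lost it and 47 turned sign, 37 of these with an array left out, where a lone array was assumed to vary like the others and its background is filled from other groups. At 28 °C the calls over all probe sets were 3 with the array set as a replicate block and 135 on the 4 arrays alone, where 3 of the 8 genes were called. Without the background block no call changed. Over the 4 pairs 50 probe sets and 2 of the 8 genes were called without the indica pair at 23 °C, and leaving out single arrays gave 0 to 50 and 0 to 2, since an array without its partner adds nothing. RTS was then -0.16, and -0.08 with array weights. Leaving out single arrays gave 0 to 35 calls for tms5 against wild type at 23 °C and 0 to 29 for temperature in tms5. At 1.5-fold 2 of the 8 genes were higher at 28 °C in both tms5 lines, and at 3-fold 0. The deposited scale turned INP1 at 23 °C (-0.05), INP1 (0.13) and MTR1 (0.46) for temperature in wild type, INP1 (0.29), CP1 (0.46), RTS (0.5) and MTR1 (0.07) in tms5, and INP1 (0.58) for indica against japonica. That last comparison had 16833 calls with no filter, 4540 in the upper 40% and 25181 on the deposited scale, where 7 of the 8 genes were called. With a pseudocount of 64 it had 0 of the 8 called, C6 at 4.31 (adjusted p = 0.0524), and with single arrays left out 3069 to 13098 calls and 0 to 5 of the 8. The causes were not tested. The array set block was not applied to the temperature comparisons, which it would absorb, nor the 4-array fit to the interaction or the 4 pairs.

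Ranges with single arrays left out, for values that turned sign, were as follows. At 28 °C they were -1.09 to 0.2 for RAFTIN1, -0.06 to 0.27 for INP1, -0.41 to 0.01 for RTS and -0.05 to 0.29 for MTR1. At 23 °C they were -1.78 to 0.06 for CYP703A3, -5.28 to 0.83 for C6, -0.72 to 1.03 for RAFTIN1, -0.25 to 0.28 for INP1 and -0.09 to 1.04 for RTS. For the interaction they were -3.75 to 2.37 for C6, -1.48 to 0.28 for RAFTIN1, -0.18 to 0.35 for INP1 and -1.85 to 0.24 for CP1. For temperature they were -0.27 to 1.81 for CP1, -0.05 to 0.22 for 4CLL1 and -0.37 to 0.29 for MTR1 in wild type, and -0.52 to 0.45 for CP1 and -0.22 to 0.15 for RTS in tms5. Over the pairs they were -0.45 to 0.05 for RAFTIN1 and -0.16 to 0.26 for RTS. For indica against japonica they were -0.2 to 1.87 for CP1, -0.03 to 1.16 for RTS, -0.27 to 0.55 for MTR1 and -0.14 to 0.36 for 4CLL1. At 28 °C CYP703A3 (-3.71 to -1.99), C6 (-5.09 to -0.75) and CP1 (-2.44 to -1.52) stayed negative without any single array. The labels give no replicate numbers, so lines were paired by background and temperature.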
